A study of Gossypium hirsutum with 24 samples.

Results

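Alpha-expansins are cell wall proteins. The 4 alpha-expansin genes described here are those that the probe annotation of the Affymetrix cotton array assigns to a probe set of their own: EXPA11A (LOC107885990), EXPA4/EXPA13D (LOC107891056, called EXPA13D below), EXPA3D (LOC107904848) and EXP1/EXPA1 (LOC107914543, called EXP1 below). Every probe set whose only annotated gene is among the 4 was taken, which gave 7 of the 23973 probe sets tested, and the genes are 4 of 520 with a probe set of their own. EXPA13D has 3 probe sets, called its first and second sense probe sets and its antisense-design probe set, EXPA3D has a sense and an antisense-design one, and EXPA11A and EXP1 have 1 each. Their IDs head the panels of the plot of values by array.

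Expansins loosen plant cell walls without cutting their polymers, by weakening the contacts between cellulose and the matrix around it, and they act best in an acid wall. A cotton fibre is a single epidermal cell of the ovule that starts to grow around flowering, elongates for weeks under turgor and then lays down a cellulose wall. Expansins are known in cotton as genes of the elongating fibre, EXP1 among them.

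The plants were Gossypium hirsutum of the cultivar Bikaneri Nerma, grown in field plots that were either watered (control) or left without irrigation from peak flowering (drought), with a shelter drawn over the drought plots during rain. Drought plots were sampled once soil moisture was at 19.5%, which was 50% of the control level. Bolls served at 0 and 5 dpa (days post anthesis, counted from flowering) and ovules carrying their fibres at 10 and 20 dpa, with 3 biological replicates, each on its own array, for control and for drought at every stage, 24 arrays in all. A protocol note for 0 dpa also names leaf, while RNA is stated to come from bolls. No source says how plots were divided among replicates, so the p-values measure the spread between these samples.

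All values are log2 signals that the authors had centred, giving each probe set a median of 0 within every stage. They therefore show how drought and control differ within a stage, and carry neither the level of a gene nor its course in control plants. Whether fibre markers were strongly expressed in the labelled tissue could not be checked for the same reason. RNA came from whole bolls or ovules, so fewer fibre cells and less expansin RNA per fibre cell cannot be told apart. Differences are drought minus control on the log2 scale with the standard error (SE) of the limma fit, 3 arrays per group. That SE pools the spread of all 8 groups, so it can be too narrow for a stage whose replicates are further apart. Calls are those with a p under 0.05 after adjustment over all 23973. Precision is limited by having 3 arrays in a group, and the median SE over all probe sets was 0.095.

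At 5 dpa all 7 expansin probe sets were lower under drought, with differences from −0.95 for EXPA11A to −1.67 for the antisense-design probe set of EXPA3D. The sense probe set of EXPA3D stood at 0.81, 0.83 and 0.78 on the 3 control arrays and at −0.83, −0.87 and −0.78 on the 3 drought arrays. The groups lay far apart beside the narrow spread within each. It fell by 1.63 ± 0.10, which is 3.10-fold (adjusted p = 1.37e-11). EXP1 stood at 0.66, 0.53 and 0.70 in control and at −0.54, −0.58 and −0.53 under drought, and fell by 1.18 ± 0.06, or 2.26-fold (adjusted p = 6.91e-13).

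EXPA11A stood at 0.46, 0.53 and 0.40 in control at 5 dpa and at −0.50, −0.54 and −0.40 under drought, and fell by 0.95 ± 0.12 (adjusted p = 4.21e-07). The first and second sense probe sets of EXPA13D differed by −1.0 ± 0.10 and −1.10 ± 0.10 and its antisense-design one by −1.05 ± 0.08, with a highest adjusted p of 1.86e-08. Every drought array lay below every control array in all 7, as it did for 38.5% of all probe sets. Of all probe sets 58.2% were called at this stage, 33.4% as lower. The median difference was −1.10 for the 7 and −0.05 for all probe sets.

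**Figure D1:**
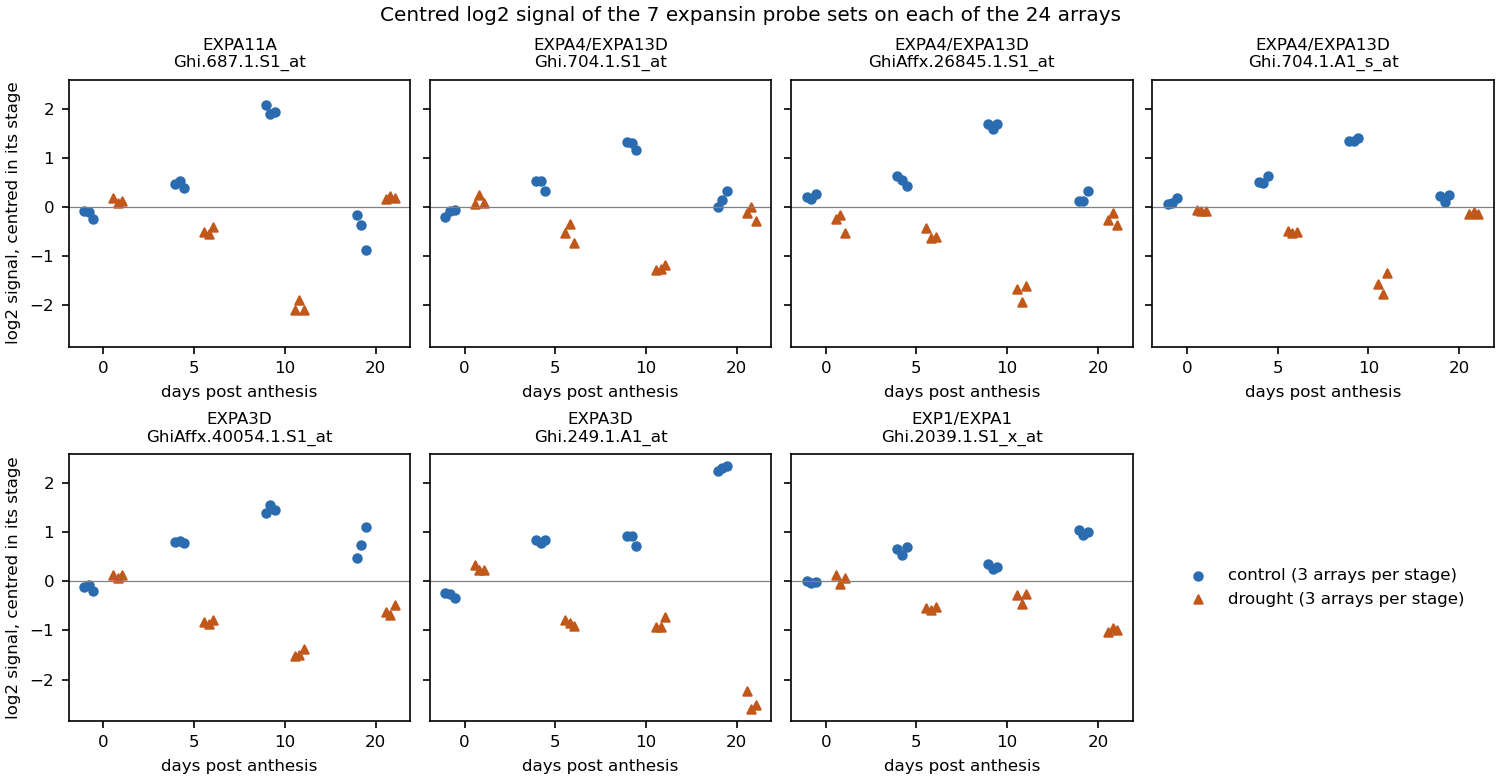
Centred log2 signal (vertical axis) of each of the 7 expansin probe sets on every array, by days post anthesis (horizontal axis, stages drawn as categories at equal distances). Circles are the 3 control arrays and triangles the 3 drought arrays of a stage. At 5 and 10 dpa every drought array lies below every control array in all 7 panels, whereas at 0 dpa the groups lie close to 0.

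At 10 dpa, when fibres are known to elongate fast, all 7 were again lower, and the 4 genes spread widely in how far they fell. EXPA11A stood at 2.08, 1.89 and 1.93 on the control arrays and at −2.09, −1.89 and −2.11 on the drought arrays. It fell by 4.0 ± 0.12, or 15.95-fold (adjusted p = 1.88e-17), which placed it 49th from the lowest difference among the 23973 probe sets. The gap between the groups was many times the spread between replicates.

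EXPA13D and EXPA3D came next at 10 dpa. The first sense probe set of EXPA13D stood at 1.32, 1.31 and 1.17 in control and at −1.28, −1.26 and −1.17 under drought, and fell by 2.51 ± 0.10, or 5.69-fold (adjusted p = 3.15e-15). The second sense probe set fell by 3.40 ± 0.10, or 10.5-fold, and the antisense-design one fell by 2.93 ± 0.08. The antisense-design probe set of EXPA3D fell by 1.73 ± 0.08. The sense probe set of EXPA3D stood at 1.39, 1.55 and 1.46 in control and at −1.52, −1.50 and −1.39 under drought, and fell by 2.93 ± 0.10, or 7.64-fold (adjusted p = 3.83e-16).

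EXP1 moved least at 10 dpa. It stood at 0.36, 0.25 and 0.30 in control and at −0.27, −0.46 and −0.25 under drought, and fell by 0.63 ± 0.06, or 1.55-fold (adjusted p = 9.29e-09). With arrays scaled on the poly-A spikes its difference was −1.70, and on the hybridisation controls −1.01, both called. The drought arrays still lay below the control arrays for EXP1 and for the other 6, as they did for 33.2% of all probe sets. Of all probe sets 60.3% were called at 10 dpa, 31.8% as lower. The median difference was −2.93 for the 7 expansin probe sets and −0.02 for all. The 7 of 7 called lower at both 5 and 10 dpa compare with 21.9% of all probe sets.

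At 20 dpa, when wall deposition is known to be under way, the genes parted. EXP1 and EXPA3D fell, EXPA13D fell little, and EXPA11A was called higher, a direction that turned with the scaling of the arrays. EXP1 stood at 1.05, 0.95 and 1.00 in control and at −1.03, −0.95 and −0.99 under drought. It fell by 1.99 ± 0.06, or 3.97-fold (adjusted p = 1.57e-16), and its replicates lay close together.

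The sense probe set of EXPA3D stood at 0.48, 0.74 and 1.12 in control at 20 dpa and at −0.63, −0.68 and −0.48 under drought, and fell by 1.38 ± 0.10 (adjusted p = 2.79e-10). Control replicates of this probe set were wider apart at 20 dpa than at the other stages, but all lay above the drought arrays. The antisense-design probe set of EXPA3D stood at 2.24, 2.32 and 2.35 in control and at −2.24, −2.59 and −2.52 under drought. It fell by 4.76 ± 0.08, or 27.0-fold (adjusted p = 8.03e-21), the 15th lowest difference of all probe sets at that stage.

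The 2 sense probe sets of EXPA13D differed by −0.29 ± 0.10 and −0.45 ± 0.10 at 20 dpa and the antisense-design one by −0.32 ± 0.08, all called lower with a highest adjusted p of 0.0144. With arrays scaled on the hybridisation controls, these became 0.08, −0.08 and 0.06 and none of the 3 was called. The first sense probe set was also not called without control replicate 3 (−0.21) or drought replicate 3 (−0.22) of that stage. EXPA11A stood at −0.16, −0.36 and −0.86 in control and at 0.16, 0.22 and 0.18 under drought. The drought arrays lay close together (standard deviation 0.03) and the control arrays were spread (standard deviation 0.36), replicate 3 being the lowest. Its difference of 0.65 ± 0.12 (adjusted p = 5.73e-05) became −0.28 and was called lower with arrays scaled on the poly-A spikes. It was −0.04 ± 0.30 and not called once the fit held the 5′ minus 3′ signal, which did not overlap between drought and control arrays. Without control replicate 3 it was 0.45 and still called. In all, 6 of the 7 were called lower and 1 higher, where 60.0% of all probe sets were called, 34.0% as lower and 26.0% as higher. No groups overlapped among the 7, which held for 62.7% of all probe sets. The median difference was −0.45 for the 7 and −0.07 for all.

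At 0 dpa, on the day of flowering, differences were small and without a common direction. The antisense-design probe set of EXPA3D stood at −0.24, −0.25 and −0.34 in control and at 0.33, 0.24 and 0.24 under drought, and rose by 0.54 ± 0.08 (adjusted p = 1.44e-05). With poly-A spike scaling this was 0.34 and not called (adjusted p = 0.0849). Its sense probe set differed by 0.23 ± 0.10 (adjusted p = 0.0747). EXPA13D rose by 0.25 ± 0.10 on its first sense probe set (adjusted p = 0.0454) and fell by 0.52 ± 0.10 on its second (adjusted p = 0.000269), opposite directions as deposited. The rise was no longer called with poly-A scaling (0.047, adjusted p = 0.835), with hybridisation control scaling (adjusted p = 0.384), with the 5′ to 3′ covariate (adjusted p = 0.354), with the replicate block (adjusted p = 0.0517) or in 13 of 24 fits without 1 array. The fall was not called with the covariate (−0.32, adjusted p = 0.26).

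EXPA11A differed by 0.27 ± 0.12 at 0 dpa (adjusted p = 0.0686) and the third probe set of EXPA13D by −0.18 ± 0.08 (adjusted p = 0.0561). EXP1 stood at 0.02, −0.03 and −0.02 in control and at 0.13, −0.06 and 0.08 under drought. Its groups overlapped and differed by 0.06 ± 0.06 (adjusted p = 0.454; 95% interval −0.07 to 0.19). Of the 7, 1 was called lower, 2 higher and 4 neither, where 44.2% of all probe sets were called, 22.9% as lower and 21.4% as higher. The groups did not overlap for 6 of 7, against 56.6% of all. The median difference was 0.23 for the 7 and 0.01 for all.

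**Figure D2:**
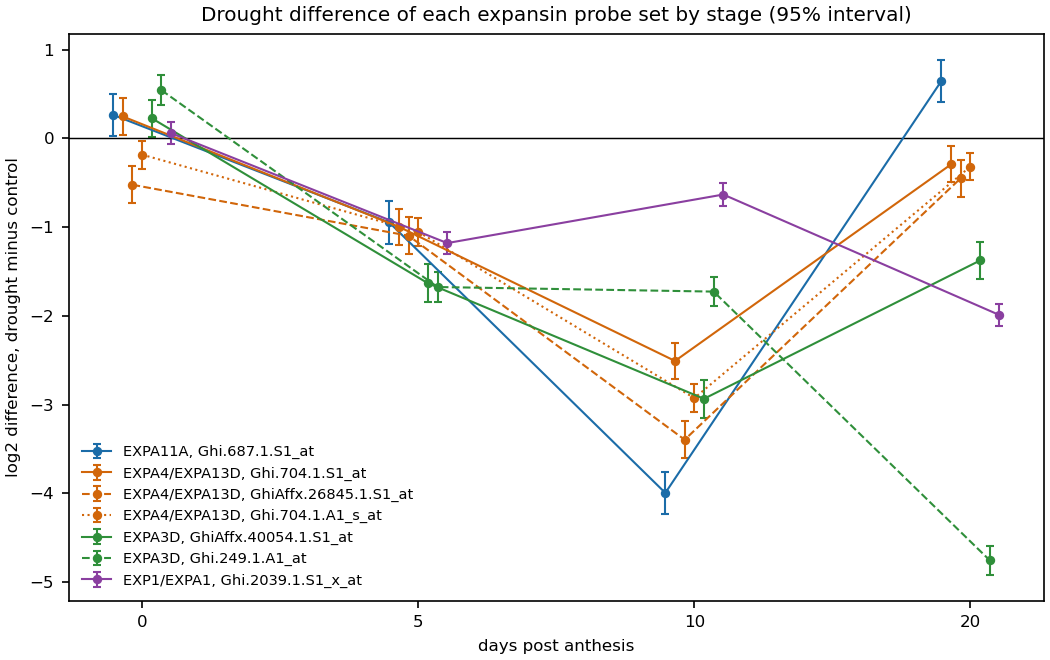
Drought minus control on the log2 scale (vertical axis) of the 7 probe sets by days post anthesis (horizontal axis, stages as categories), coloured by gene, with 95% intervals of the fit. EXPA11A goes from −4.0 at 10 dpa to 0.65 at 20 dpa (−0.28 with poly-A spike scaling), while EXP1 and 1 probe set of EXPA3D are lowest at 20 dpa.

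The change of the drought difference from stage to stage was tested within the same fit. From 0 to 5 dpa it dropped for all 7, with changes from −0.57 ± 0.14 for the second sense probe set of EXPA13D to −2.22 ± 0.11 for the antisense-design one of EXPA3D, where 53.3% of all probe sets were called and 31.1% as dropping. With arrays scaled on the poly-A spikes 2 of the 7 drops were no longer called, those of the second sense (−0.18, adjusted p = 0.564) and antisense-design (−0.47, adjusted p = 0.09) probe sets of EXPA13D. From 5 to 10 dpa it dropped for 5 of 7, with a change of −3.05 ± 0.16 for EXPA11A. For EXP1 it rose by 0.55 ± 0.09 (adjusted p = 1.99e-05), and for the antisense-design probe set of EXPA3D the change was −0.05 ± 0.11 (adjusted p = 0.749). Of all probe sets 46.6% were called in that step, 23.1% as dropping and 23.4% as rising. With arrays scaled on the poly-A spikes both were called as drops, with −0.72 for EXP1 and −1.31 for that probe set of EXPA3D (adjusted p = 2.2e-06). Scaled on the hybridisation controls, the change of EXP1 was 0.21 and not called (adjusted p = 0.516).

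From 10 to 20 dpa the difference rose for 5 of 7 and dropped for 2, where 59.9% of all probe sets were called, 29.6% as dropping and 30.3% as rising. It rose by 4.64 ± 0.16 for EXPA11A, by 2.22 ± 0.14, 2.95 ± 0.14 and 2.61 ± 0.11 for EXPA13D, and by 1.56 ± 0.14 for the sense probe set of EXPA3D. The change was −3.03 ± 0.11 for the other probe set of EXPA3D and −1.36 ± 0.09 for EXP1. Consecutive steps share the arrays of the stage between them.

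**Figure D3:**
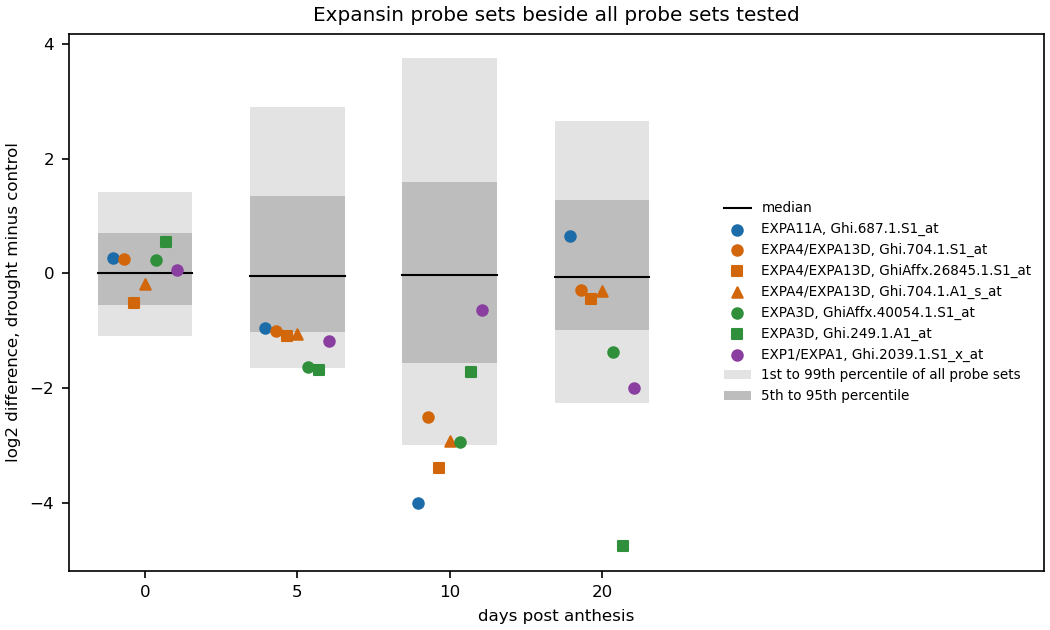
Drought minus control on the log2 scale (vertical axis) by days post anthesis (horizontal axis, stages as categories) for the 7 expansin probe sets, beside bands that hold the 1st to 99th and the 5th to 95th percentile of all 23973 probe sets and a line at their median. At 10 dpa EXPA11A and 1 probe set of EXPA13D lie below the 1st percentile, which was −3.0, and at 20 dpa 1 probe set of EXPA3D lies below it.

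Whether probe sets of different genes differed in their response was tested on the difference between 2 of them on each array. No shift of a whole array can move this measure. An exact two-sided permutation test exchanged drought and control labels within each stage in all 160000 ways, for 6 pairs of genes, with EXPA13D and EXPA3D by their first or only sense probe set. All 6 pairs differed, with adjusted p-values over the pairs of 0.0003 to 0.0113 in this exact test. The smallest p the test can give is 0.0001, and within a single stage 3 arrays against 3 cannot go below 0.1.

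EXPA11A and EXP1 were the pair furthest apart at 10 dpa, where the drought difference of EXPA11A was 3.36 lower, and at 20 dpa it was 2.64 higher (exact permutation test, adjusted p = 0.0003). The sense probe set of EXPA3D and EXP1 differed by −0.45 at 5 dpa, −2.30 at 10 dpa and 0.62 at 20 dpa (exact permutation test, adjusted p = 0.0003). At 20 dpa the antisense-design probe set of EXPA3D, at −4.76, lay below EXP1, at −1.99, so the order there turned with the probe set. EXPA11A and the first sense probe set of EXPA13D had drought differences that lay 0.02 apart at 0 dpa and 0.05 at 5 dpa, with overlapping arrays, and −1.49 and 0.94 apart at 10 and 20 dpa (exact permutation test, adjusted p = 0.0113). The first sense probe set of EXPA13D and the sense one of EXPA3D differed by 0.64, 0.43 and 1.08 at 5, 10 and 20 dpa, EXPA3D being the lower (exact permutation test, adjusted p = 0.00105). These orders belong to the probe sets compared. At 10 dpa the second sense probe set of EXPA13D (−3.40) lay below both probe sets of EXPA3D (−2.93 and −1.73).

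Probe sets of the same gene also differed. The same test over 4 pairs of probe sets within a gene, chosen after the values were seen, gave adjusted exact permutation p-values of 0.0024 to 0.035. The pair of EXPA3D was within 0.04 at 5 dpa and 3.38 apart at 20 dpa, so the size of the EXPA3D fall at 20 dpa depends on the probe set. The 3 probe sets of EXPA13D were within 0.10 of each other at 5 dpa and within 0.16 at 20 dpa, and up to 0.89 apart at 10 dpa. The suffixes _s_at and _x_at mark probe sets that may bind related transcripts, which applies to the antisense-design probe set of EXPA13D and to the EXP1 probe set. Another cotton gene also named EXP1 and EXPA1 has no probe set assigned to it. Whether the EXP1 probe set reads its transcript as well was not tested. Which strand the probe sets of antisense design read in these samples was not tested.

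Likeness between probe sets was described by Pearson's r over the 24 centred values, which share the arrays and the drought contrast and are given without a p. The 3 probe sets of EXPA13D correlated with each other at 0.960 to 0.988, and with EXPA11A at 0.918 to 0.934. Within EXPA13D, 13 to 237 of all probe sets were closer than its own. To EXPA11A, 452 to 617 were closer than those of EXPA13D, and 2055 were closer than the sense probe set of EXPA3D (r = 0.796). EXP1 stood apart from EXPA11A (r = 0.234) and from EXPA13D (0.490 to 0.500). The antisense-design probe set of EXPA3D was more like EXP1 (r = 0.972) than like the sense probe set of EXPA3D (r = 0.736), and 24 of all probe sets were closer to it than EXP1 was.

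**Figure D4:**
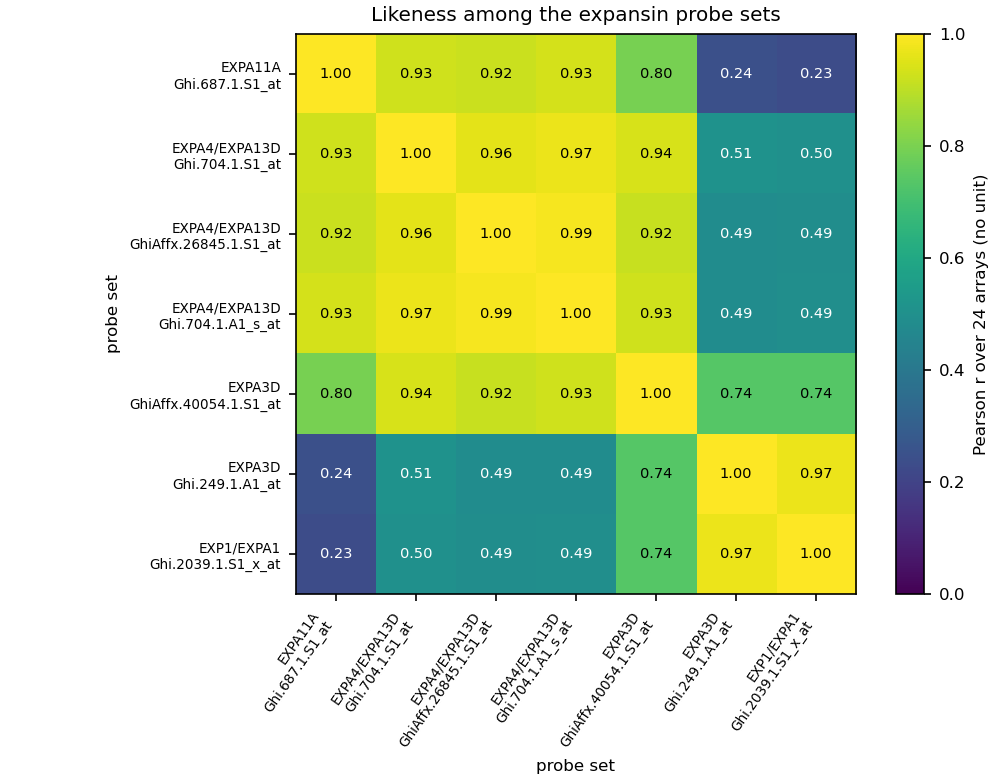
Pearson's r over 24 arrays for each pair of the 7 expansin probe sets, on both axes in the same order and coloured from 0 to 1. EXPA11A, EXPA13D and the sense probe set of EXPA3D form a block with r of 0.796 or more, and the antisense-design probe set of EXPA3D and EXP1 pair at 0.972. The block is not particular to expansins, as 2055 of all probe sets were closer to EXPA11A than the sense probe set of EXPA3D.

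Among 242 other genes that have both a probe set of their own and a name, those most like EXPA11A were APY1, an apyrase gene (r = 0.976), SMT2-1, a sterol methyltransferase gene (0.974), and bnlghi6863 (0.974). They are the nearest among the 242 only, as 55, 66 and 67 of all probe sets were closer to EXPA11A. SMT2-1 differed by −1.20 at 5 dpa and −3.04 at 10 dpa and by 0.81 at 20 dpa, all of them called, though the last turned negative with poly-A spike scaling. Most like EXPA13D were the sterol methyltransferase gene SMT1, ARF1 and FLA13 for the first sense probe set (0.977 to 0.979). For its other probe sets they were CPA-FAS-2, a cyclopropane fatty acid synthase gene, GAI2, PGIPL and again FLA13 (0.976 to 0.990). From 15 to 131 of all probe sets were closer to the EXPA13D probe sets than these genes. FLA13, which encodes a fasciclin-like arabinogalactan protein of the cell surface, was called lower at 5 dpa (−1.72) and 10 dpa (−4.38) and differed by 0.02 at 20 dpa (adjusted p = 0.845).

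Among the 242 genes, those most like the sense probe set of EXPA3D were 3 of fatty acid synthesis and elongation, KAS2-1/KASII, KASIII and FDH/KCS45 (0.966 to 0.975). Of all probe sets 68, 95 and 179 were closer to it than these. FDH/KCS45, whose enzyme lengthens fatty acids for waxes and membranes, was called lower at 5, 10 and 20 dpa (−0.90, −1.40 and −0.89). Most like EXP1 were Pat1 (r = 0.977) and the MYB factor genes GHMYB10 (0.977) and GHMYB38 (0.974). GHMYB10 was called lower at 5, 10 and 20 dpa (−2.15, −0.69 and −2.74). Of these its difference at 10 dpa was the smallest, as for EXP1 on the deposited values. With poly-A spike scaling EXP1 was instead lower at 10 dpa (−1.70) than at 5 dpa (−0.98). The antisense-design probe set of EXPA3D had GST, GHMYB38 and Pat1 as its nearest genes, of which GHMYB38 and Pat1 were also among those of EXP1. For that probe set and for EXP1, 2 to 15 of all probe sets were closer than the genes named.

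Genes of cell wall work or of supply for growth, listed by name, were counted at 10 dpa, with 1 probe set per gene. Whether they act in the fibre was not tested. Expansins are thought to act beside xyloglucan endotransglucosylases, enzymes that cut and rejoin the xyloglucan tethers. Of 3 such genes 2 fell and 1 rose. XTH3 rose by 3.84 ± 0.10 (adjusted p = 2.58e-18) and stayed higher, by 2.77, with arrays scaled on the poly-A spikes, whereas XTH/XTH1 fell by 0.66 ± 0.10. Of 2 genes of pectin cleavage, the pectate lyase gene Pel fell by 0.35 ± 0.10 and the polygalacturonase gene G9 differed by 0.01 ± 0.08 (adjusted p = 0.955). G9 had risen by 7.96 ± 0.08 at 0 dpa, when EXP1 differed by 0.06. RNA at 0 dpa came from whole bolls, and which of their tissues gave this rise was not tested. The counts stand beside the 31.8% of all probe sets called lower and 28.5% called higher at 10 dpa, and they are small.

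Turgor and sugar supply drive the extension that expansins permit. Of 5 genes on that list 3 fell at 10 dpa, among them the aquaporin gene NIP6.1 by 1.89 ± 0.13 and the sucrose synthase gene Sus1 by 1.07 ± 0.04, and 2 rose, SusA1 by 1.35 ± 0.38 and susC by 0.27 ± 0.05. With arrays scaled on the poly-A spikes SusA1 was at 0.28 and susC at −0.80. The ID of the susC probe set shares its stem with that of EXP1. Of 11 actin and tubulin genes, which build the cytoskeleton of the growing cell, 9 fell at 10 dpa and 2 were not called. All 11 had fallen at 5 dpa, where 33.4% of all probe sets were called lower, with medians of −0.69 at 5 dpa and −0.71 at 10 dpa. The tubulin genes BTub1/BTub2 and BTub3 differed by −3.52 ± 0.13 and −1.23 ± 0.04. The cellulose synthase gene CesA1, read by an antisense-design probe set, fell by 3.06 ± 0.11 at 10 dpa and rose by 0.83 ± 0.11 at 20 dpa, which became −0.09 with poly-A spike scaling.

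Of 7 regulators of fibre growth 4 fell at 10 dpa, 2 rose and 1 was not called. GAI2, a DELLA repressor gene of gibberellin signalling, fell by 1.75 ± 0.06 and the MYB factor gene myb109 by 1.40 ± 0.10. The gibberellin receptor genes GID1-2 and GID1-4 rose by 2.94 ± 0.25 and 0.82 ± 0.10, although GID1-4 was at −0.25 with poly-A spike scaling. HOX3, a homeodomain factor known in cotton to promote fibre elongation, was chosen for mention after its values were seen. It differed by 0.21 ± 0.09 at 0 dpa (adjusted p = 0.0849) and was called lower at 5, 10 and 20 dpa (−1.15 ± 0.09, −1.0 ± 0.09 and −0.63 ± 0.09).

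Markers of fibre and of other tissues moved as well. Of 3 fibre marker genes, E6 fell by 1.17 ± 0.08 at 5 dpa, by 0.27 ± 0.08 at 10 dpa and by 0.96 ± 0.08 at 20 dpa. FSLTP2 rose by 0.56 ± 0.07 at 5 dpa and differed by −0.02 ± 0.07 at 10 dpa (adjusted p = 0.876). Rac13 differed by −0.22 ± 0.10 at 5 dpa (adjusted p = 0.0568) and by −0.001 ± 0.10 at 10 dpa (adjusted p = 0.991). With poly-A spike scaling the 10 dpa differences were −1.33 for E6, −1.08 for FSLTP2 and −1.07 for Rac13. The median of all probe sets was then −1.09. At 20 dpa all 3 fell, with a median of −0.85. RCA1, the rubisco activase gene and the single photosynthesis marker with a probe set of its own, rose by 0.37 ± 0.13 at 0 dpa, fell by 3.46 ± 0.13 at 5 dpa and differed by −0.30 ± 0.13 at 10 dpa (adjusted p = 0.0583). The lists of pollen or anther and of seed storage markers had 0 genes with such a probe set. The part of tissue make-up in the expansin differences was not tested.

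Control transcripts on the arrays also differed between drought and control. Poly-A spikes, bacterial RNAs used to follow labelling, differed by 0.20, −0.20, 1.07 and 0.93 at 0, 5, 10 and 20 dpa. Hybridisation controls, added after labelling, differed by −0.002, 0.04, 0.38 and −0.37. The 5′ signal of control transcripts relative to their 3′ signal, a ratio that drops as RNA degrades, was higher under drought at every stage, by 0.66, 0.30, 0.36 and 1.17. In this ratio drought and control arrays did not overlap at any stage. A fit that holds it as a covariate can therefore separate it from drought only weakly. Shifting each array so that its poly-A spikes agreed moved the median of all probe sets to −0.19, 0.14, −1.09 and −0.99 in stage order. It moved the 7 expansin probe sets by as much, so their distance from that median did not change.

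All 7 were called lower at 5 and at 10 dpa under each of the other scalings and fits tried, with differences of −0.70 to −1.71 at 5 dpa and −0.56 to −5.25 at 10 dpa. Of all 23973 probe sets, poly-A spike scaling called 3794 lower at 5 dpa and 20986 at 10 dpa. Hybridisation control scaling called 5855 and 12831 lower at these stages. At 0 and 20 dpa the calls of EXPA11A and EXPA13D did depend on the setting, and at 0 dpa so did those of both probe sets of EXPA3D. EXP1 and both probe sets of EXPA3D were lower at 20 dpa in every setting.

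**Figure D5:**
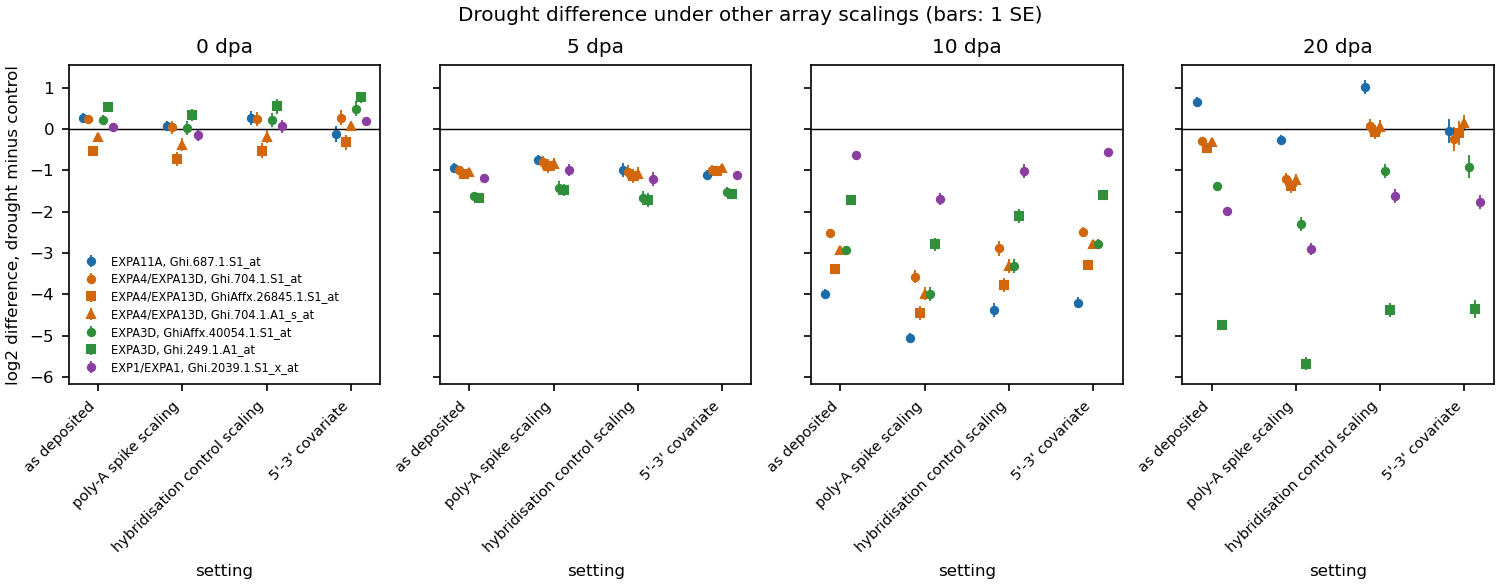
Drought minus control on the log2 scale (vertical axis, bars of 1 SE) of the 7 expansin probe sets at each stage, with the arrays as deposited, scaled on poly-A spikes, scaled on hybridisation controls, or with that 5′ to 3′ difference as a covariate (horizontal axis). At 5 and 10 dpa all points lie below 0 in each setting, and at 20 dpa EXPA11A and EXPA13D lie on either side of 0.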

How the data were processed

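The authors deposited 1 table of 24 arrays and 24132 probe sets, made by RMA per the submitters' processing notes (version not given in the sources used here). The deposited log2 values had been centred by the authors on each probe set's median within a stage, a step no source states. The 159 control probe sets were left out, leaving 23973. limma 3.58.1 in R 4.3.3 fitted 8 group means (16 residual degrees of freedom). P-values are two-sided and Benjamini-Hochberg adjusted over all probe sets, called under 0.05. Genes came from the platform annotation and synonyms from the RefSeq table of Gossypium_hirsutum_v2.1; all 520 genes matched.

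Members and lists were chosen with earlier results of these data known. Named genes are the members, in each list the 2 with the smallest p at the stage described and any going against most of the list, and the 3 genes most like each member. Fits were tested on simulated data. Replicate numbers were not taken to pair samples, as no source says that they do. Deviations from group means of same-numbered arrays correlated at −0.10 to 0.12. With 3 arrays per group this cannot show whether plots were matched. Alternatives were other array scalings, a 5′ minus 3′ covariate, robust variances, array weights, a replicate block, fits by stage and leaving out each array. Absolute levels, promoter and probe sequences were not used here.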

Additional observations from a re-analysis of the deposited data

Results flagged for a closer look

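The drought difference of the expansins changed between consecutive stages in 20 of 21 tests, each made as an interaction contrast in limma, where 53.3%, 46.6% and 59.9% of all probe sets were called in the 3 steps. From 0 to 5 dpa the change was −1.21 for EXPA11A, −1.24, −0.57 and −0.87 for the first sense, second sense and antisense-design probe sets of EXPA4/EXPA13D, −1.86 and −2.22 for the sense and antisense-design ones of EXPA3D and −1.24 for EXP1/EXPA1. From 5 to 10 dpa it was −3.05 for EXPA11A, −1.51, −2.30 and −1.87 for EXPA4/EXPA13D, −1.30 for the sense probe set of EXPA3D and 0.55 for EXP1/EXPA1. From 10 to 20 dpa it was 4.64 for EXPA11A, 2.22, 2.95 and 2.61 for EXPA4/EXPA13D, 1.56 and −3.03 for EXPA3D and −1.36 for EXP1/EXPA1. With poly-A spike scaling the 0 to 5 dpa changes of the second sense and antisense-design probe sets of EXPA4/EXPA13D were not called (adjusted p = 0.564 and 0.09), and the change of EXP1/EXPA1 from 5 to 10 dpa turned its sign. With hybridisation control scaling the latter was not called (adjusted p = 0.516).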

How the results depend on the processing

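All 7 expansin probe sets kept their fall at 5 and at 10 dpa in every setting, leaving out each array included. With poly-A scaling, though, 20986 of all 23973 probe sets were called lower at 10 dpa, and with hybridisation control scaling 12831. Within a stage the calls that changed were at 0 and 20 dpa, and 4 of the changes between stages moved too. Scaling on the poly-A spikes left 0 called higher at both stages: at 0 dpa EXP1/EXPA1 was at −0.14, the antisense-design probe set of EXPA3D at 0.34 and the first sense one of EXPA4/EXPA13D at 0.047, and at 20 dpa EXPA11A was at −0.28. From 5 to 10 dpa EXP1/EXPA1 then changed by −0.72 and the antisense-design probe set of EXPA3D by −1.31, now called, while from 0 to 5 dpa the second sense (−0.18) and antisense-design (−0.47) probe sets of EXPA4/EXPA13D lost their call, and of all probe sets 22440 were called at 10 dpa and 22256 at 20 dpa. The same scaling without the trpn spike, chosen after seeing the data, gave −0.16, 0.33 and 0.029 at 0 dpa, −0.45 at 20 dpa, −0.96 and −1.55 for the changes from 5 to 10 dpa and −0.11 and −0.41 for those from 0 to 5 dpa, 0 called higher at 0 and 20 dpa, and 6578, 22746 and 22579 probe sets called at 0, 10 and 20 dpa. Scaling on the hybridisation controls left 1 called higher at 0 dpa, where the first sense probe set of EXPA4/EXPA13D was at 0.25. It left 3 called lower at 20 dpa, where the 3 probe sets of EXPA4/EXPA13D were at 0.079, −0.077 and 0.055. Of all probe sets it called 4246 at 0 dpa and 11686 at 20 dpa, 1873 of the latter lower. The change of EXP1/EXPA1 from 5 to 10 dpa (0.21) was not called. With the 5′ to 3′ difference as a covariate, 0 were called lower and 1 higher at 0 dpa, and 3 lower and 0 higher at 20 dpa. EXPA11A was then at −0.13 and −0.041 at these stages and EXPA4/EXPA13D at 0.28, −0.32 and 0.081 and at −0.24, −0.094 and 0.15, with 3686 and 4359 of all probe sets called. The share of calls that were higher was 48.3%, 42.6%, 47.3% and 43.3% at 0, 5, 10 and 20 dpa as deposited, 22.9%, 64.1%, 6.48% and 5.81% with poly-A scaling, and 58%, 40.5%, 18.9% and 84% with hybridisation control scaling. Array weights called 2 lower and 4 higher at 0 dpa, adding EXPA11A (0.24), the antisense-design probe set of EXPA4/EXPA13D (−0.17) and the sense one of EXPA3D (0.21), and lost the first sense one of EXPA4/EXPA13D at 20 dpa (−0.26). They called 12297 of all probe sets at 0 dpa, 6283 lower and 6014 higher. Fits of a stage alone called the same 2 lower and 4 higher at 0 dpa (0.27, −0.18 and 0.23) and lost the same probe set at 20 dpa (−0.29). The fit of 0 dpa called 10964 of all probe sets, 5473 lower and 5491 higher. With the replicate number as a block, the first sense probe set of EXPA4/EXPA13D at 0 dpa was no longer called (0.25, adjusted p = 0.0517) and the sense one of EXPA3D was (0.23, adjusted p = 0.0451); the block changed no other expansin call. Leaving out each array in turn gave 1 to 2 called lower and 1 to 4 higher at 0 dpa, with 9088 to 11216 of all probe sets called. The values at 0 dpa that crossed the threshold ranged from 0.21 to 0.30 for EXPA11A, 0.19 to 0.28 and −0.21 to −0.14 for the first sense and antisense-design probe sets of EXPA4/EXPA13D, and 0.19 to 0.26 for EXPA3D; at 20 dpa the first sense one of EXPA4/EXPA13D ranged from −0.37 to −0.21. At 0 dpa that probe set lost its call in 13 of the 24 fits, EXPA11A and EXPA3D gained one without control replicate 1 or 3 of 20 dpa, and the antisense-design probe set of EXPA4/EXPA13D gained one without drought replicate 2 or 3 of 10 dpa. Robust variances and arrays centred on their median changed no expansin call. The causes were not tested. Centred values leave signal over background unknown, so a filter on dim probe sets was not run.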

Other observations

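The cotton array carries 2 further probe sets whose IDs share their stem with that of EXP1/EXPA1. One belongs to the sucrose synthase gene susC, which correlated with EXP1/EXPA1 at r = 0.905 over the 24 arrays and differed by −0.31, −2.0, 0.26 and −2.25 at 0, 5, 10 and 20 dpa, all called. The other has no annotated gene and correlated at r = 0.314, with differences of −0.16, −1.0, −1.95 and 0.36, all called. Which transcripts each of these probe sets and that of EXP1/EXPA1 bound was not tested. The sequence of calls seen for EXPA11A, which was no call at 0 dpa, lower at 5 and 10 dpa and higher at 20 dpa, was shared by 475 of the 23973 probe sets (1.98%).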
